A study of Mus musculus with 6 samples.

Results

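The 42 genes described here encode transcription factors that pattern the hypothalamus and forebrain during development. They were chosen as a list of symbols, and every probe whose gene name in the scanner files equals a listed symbol was taken, which gave 77 probes of the 56605 on the array and 42 of its 37074 gene names. The arrays are 6 one-colour Agilent arrays of hypothalamic RNA from male C57BL/6J DIO mice, mice made obese by a diet with 60 kcal% fat that began at 6 weeks of age and lasted 16 weeks. In 3 of them the mice had received vehicle and in the other 3 GSK-J4 at 30 mg kg−1, an inhibitor of the Kdm6 demethylases that remove H3k27me3. The tissue was taken at ZT 6 h, ZT being the time since lights on, on day 4 by the design text of the series, while the methods give a longer course of treatment. The methods take an individual mouse as the biological replicate in vivo, while the array titles give replicate numbers only.

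These factors act in combinations that give neurons of each nucleus their identity, and many stay on in the mature neurons. Nkx2-1 is known to mark the ventral hypothalamus, Otp and Sim1 are needed for the neuroendocrine neurons of the paraventricular nucleus, Nr5a1 marks the ventromedial nucleus, and Dlx genes drive GABAergic neurons of the forebrain. Genes of this class are classical carriers of H3k27me3 in cells where they are silent.

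A probe was called well above background by the flag that the scanner software sets. Signals are given as quantile normalized log2 values, and differences as GSK-J4 minus vehicle on that scale. All 3 vehicle arrays lie on slide 1 and all 3 GSK-J4 arrays on slide 2, scanned apart, so that an effect of the slide and one of GSK-J4 cannot be told apart. The GSK-J4 arrays were dimmer before normalization, with a 75th percentile of the signal of 406 to 461 against 787 to 916 for vehicle, and 57.7% to 58.7% of all probes well above background against 62.8% to 63.6%. The number of arrays limits the precision. With 3 arrays in each group the smallest p of an exact permutation test is 0.1, which is the p wherever the groups are said not to overlap.

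Among the 42 genes, 23 had a probe well above background on all 6 arrays, 7 had one on some arrays only, and 12 had none on any array. Over probes, 33 of the 77 were well above background on all 6 arrays (42.9%, against 54.7% of all probes) and 31 on none (40.3%, against 32.3%). The genes below background on every array were Nkx2-1, Otp, Sim1, Isl1, Bsx, Hmx2, Hmx3, Foxb1, Irx2, Irx5, Onecut3 and Pou3f4. Several of these are defining genes of the labelled tissue, since Nkx2-1 marks its ventral part, Otp and Sim1 the paraventricular lineage, Bsx and Isl1 the arcuate nucleus, and Foxb1 the mammillary body. In a bulk sample, few cells of a type and little RNA per cell cannot be told apart, and a dim probe may also be a weak probe.

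**Figure D1:**
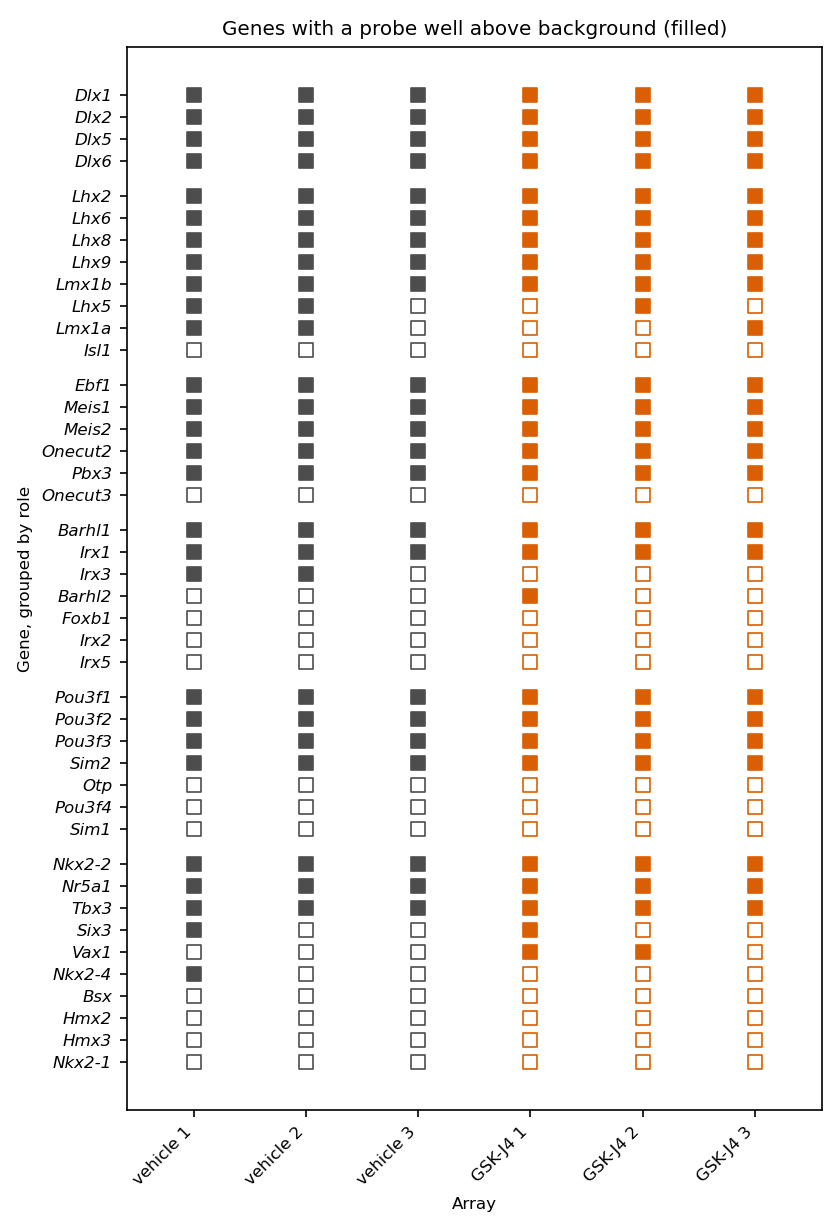
Each square is 1 gene (rows, grouped by role) on 1 array (columns, 3 vehicle in grey and 3 GSK-J4 in orange). A filled square means that at least 1 probe of the gene was well above background, which held on all 6 arrays for 23 of the 42 genes and on none for 12.

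The label of the tissue was set against other markers. Of 18 peptides of hypothalamic neurons, 13 were well above background on all 6 arrays, among them Pomc, Npy, Cartpt and Oxt. Avp, Pmch and Trh were so on 3 of the 6 arrays. Of 10 markers of cortex and striatum, 9 were well above background on all 6 arrays, including Tbr1, Neurod6 and Neurod2, which are known for the telencephalon. Of 10 markers of thalamus and habenula, 8 were. Of 10 markers of midbrain and hindbrain, 4 were and 5 were below background on every array, and of 9 pituitary markers, 1 was and 7 were below it throughout. Probes differ in their response, so these are counts of detection and not amounts of tissue.

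One vehicle array stood apart before any comparison. On vehicle 1 the summed signal of 10 markers of choroid plexus and ependyma was 113426, against 4352 and 4504 on vehicle 2 and vehicle 3 and 13700, 4383 and 6344 on GSK-J4 1, GSK-J4 2 and GSK-J4 3. The brightest gene of that list was Ttr, the transthyretin of the choroid plexus, at 16.15 on vehicle 1 and between 10.42 and 13.24 on the other arrays, and 9 of the 10 genes were well above background on all 6 arrays. A member of the list, Otx2, a factor of the choroid plexus and the anterior brain, was 11.82 on vehicle 1 and 7.10 to 8.75 elsewhere. Lmx1a, a roof plate factor, had its highest value there too, with 7.10, 4.93 and 3.35 on vehicle 1 to 3 and 4.49, 2.86 and 6.03 on GSK-J4 1 to 3, and was well above background on vehicle 1, vehicle 2 and GSK-J4 3. The brightest probe of Six3, a factor of the rostral forebrain, gave 6.71 on vehicle 1 against 3.90, 3.74, 4.81, 3.79 and 3.57, and its antisense neighbour Six3os1 gave 6.46 there against 1.90 to 3.89. Neither Lmx1a nor Six3 was tested, since each missed the background flag on an array of either group. Whether choroid plexus in the sample has a part in their values was not tested, and the counts of called probes of the 42 genes, of the other developmental factors and of all tested probes are also given without vehicle 1.

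**Figure D2:**
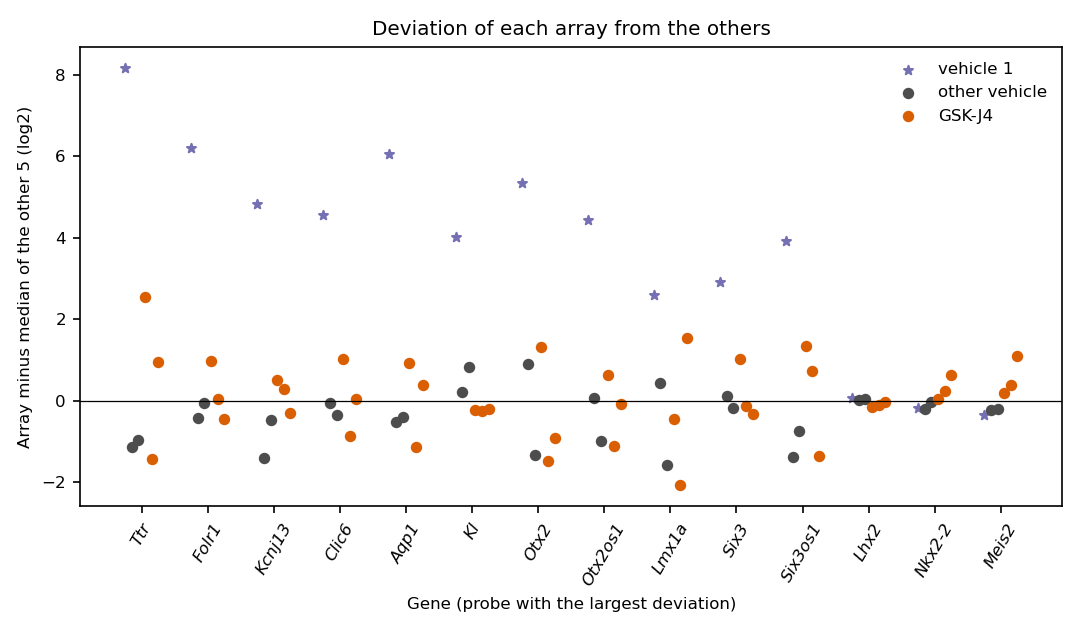
Each point is 1 array, as its log2 signal minus the median of the other 5 arrays for the same probe, for markers of the choroid plexus, for genes that were high with them and for 3 others of the 42 genes. Vehicle 1 (stars) lies 8.17 above the others for the dimmer probe of Ttr, 2.92 for Six3 and 2.61 for Lmx1a, while for Lhx2 it lies at 0.06.

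GSK-J4 against vehicle asks whether genes of this class changed when Kdm6 was inhibited. Most did not pass the test. The only tested probe of Lhx8, 1 of 2 of Nkx2-2 and 1 of 5 of Meis2 rose in the GSK-J4 arrays and Pou3f1 fell, each by less than 1 on the log2 scale. Of the 77 probes, 37 probes of 23 genes entered the test, because each was well above background in every array of vehicle, of GSK-J4 or of both, by limma over all 34443 such probes of the array with Benjamini-Hochberg adjustment. With the adjusted p held to 0.05 or less, 3 of the 37 were higher and 1 was lower, while of all tested probes 8.38% were higher and 8.4% lower. The members' shares were 8.11% and 2.7%, so that the higher share lies near that of all tested probes and the lower one, 1 probe, below it, and neither is read as a result about the 42 genes. At the methods' thresholds, which are a fold of 1.5 or more with an unadjusted p of 0.05 or less, 3 probes were higher and 1 was lower, beside 4.8% and 7.85% of all tested probes. The lower one, a probe of Pbx3, was well above background on vehicle arrays only. The groups did not overlap for 11 probes that were higher and 4 that were lower, beside 24.5% and 21.1% of all tested probes. All 4 called probes were among the 33 well above background on all 6 arrays, where 9.1% of all such probes were higher and 7.85% lower. The median difference over these 33 was 0.09, and over all such probes it was 0.05.

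Most calls were lost when 1 array was left out, while the differences kept their direction and much of their size. Over the 6 omissions they were 0.77 to 1.02 for Meis2 A_66_P102500, 0.48 to 0.73 for Lhx8, 0.51 to 0.66 for Nkx2-2 and -0.45 to -0.35 for Pou3f1. Without vehicle 1, without vehicle 2, without vehicle 3 or without GSK-J4 1, limma called 0 of the 37 probes in either direction, and over all tested probes it then called 2 higher and 8 lower, 1 and 12, 1 and 4, and 979 and 1428. Without GSK-J4 2, 4 were higher and 0 lower, namely Meis2 A_66_P102500 and, newly, Meis2 A_55_P2047155 (limma adjusted p = 0.0261), Meis1 A_55_P1995572 (limma adjusted p = 0.0334) and Pou3f2 (limma adjusted p = 0.037), beside 6.02% higher and 6.03% lower of all tested probes. Without GSK-J4 3, 2 were higher, Meis2 A_66_P102500 and Nkx2-2, and 1 was lower, the Pbx3 probe, beside 4.46% and 7.21% of all tested probes. Without vehicle 1, 1 of the 37 was higher and 1 lower at the methods' thresholds. With the replicate number as a block, 0 of the 37 passed the adjusted p, as did 0 of all tested probes.

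The probes of the genes that the comparison turns on are shown by their first 30 bases of 60, 5′ to 3′, with G and C in capitals, because the differences on these arrays went with base composition. The part shown can differ in composition from the whole probe. Over all 60 bases the shares of G and C were, in the order shown, 53.3%, 35%, 35%, 40%, 35%, 35%, 61.7%, 35% and 38.3%.
Meis2 A_66_P102500: aaaCGaaCaaaaGCtaGaGCGCCatGCCaa
Meis2 A_55_P2047155: GGaCtaaGttaaaCttGtaCatttCtGttG
Meis2 A_52_P290211: aGaatGaCtCttCGGtttCtaGCtaCCaGt
Pbx3 A_55_P1968982: GCGCtCaCttaCtaCCtCtGaaCaataCtC
Pbx3 A_55_P2107367: CaCCCtGGattGaaaaGtCttCCttGtGGt
Pbx3 A_55_P2718855: GaaCtGCCaCtGtCaGtGGaCaGtGtGatt
Lhx8 A_66_P132546: GGGCCCGCCataaGaaaCaCGtCaGCCCaa
Nkx2-2 A_55_P1985905: CaCaattGaaGCatatatttCCaCCtCttC
Pou3f1 A_55_P1961152: GGaGCttCCCCCttCaCCatttCttCatCt
Over all 34443 tested probes, the median difference was -0.16 for those with at most 35% G and C and 0.24 for those above 50%, and 21.5% of the latter were called higher against 1.74% of the former. Pearson's r between G and C content and the difference was 0.33 across these probes and 0.30 across the 37 probes of the listed genes, as a description, since probes on the same arrays are not independent. The 37 have a median of 40% G and C against 43.3% for all. With the trend on G and C content removed within each array, the calls over all tested probes were 1468 higher and 2223 lower, where they had been 2888 and 2893.

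**Figure D3:**
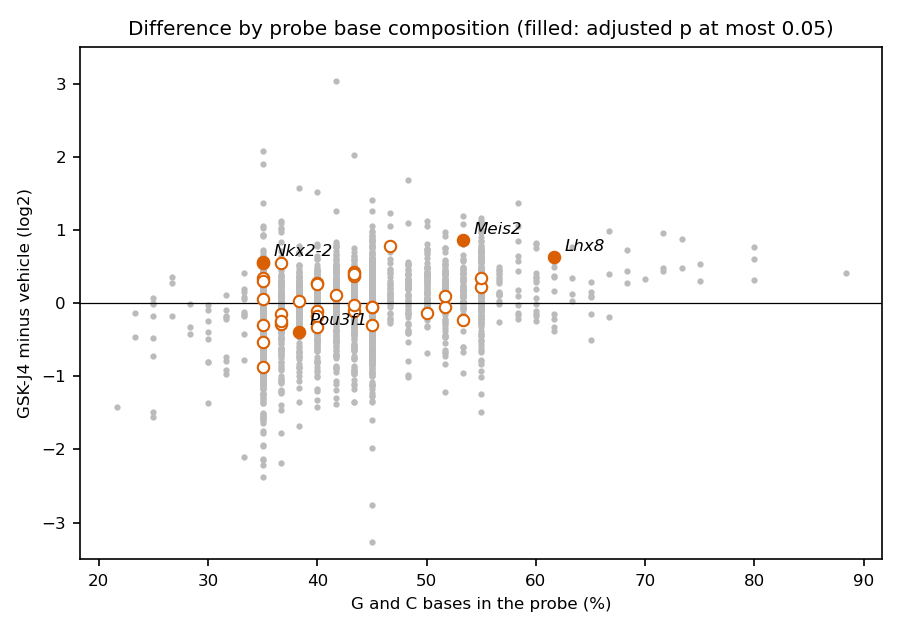
Difference between GSK-J4 and vehicle (log2) against the share of G and C bases in the probe (%), for the 37 tested probes of the listed genes (orange, filled where the adjusted p was at most 0.05) over a random draw of all tested probes (grey). Lhx8 has the highest G and C content of the 37, at 61.7%, and Nkx2-2 lies at 35%.

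The groups of genes below hold 2 to 14 tested probes each, and beside 8.38% higher and 8.4% lower of all tested probes a count of 0 or 1 called is no result about a group. Among factors of ventral and basal identity, 3 of 10 genes were tested, with 5 probes, of which 1 was called higher and 0 lower. Nkx2-2 is a homeodomain factor of the ventral neural tube that is also used by the oligodendrocyte lineage. Its probe at chr2:147003307-147003366 of mm9, minus strand, gave 4.71, 4.60 and 4.82 on vehicle 1 to 3 and 5.36, 5.37 and 5.08 on GSK-J4 1 to 3. Every GSK-J4 array was above every vehicle array, and the difference was 0.56 (SE 0.11, n = 3 per group, limma adjusted p = 0.0308). It was 0.18 (limma adjusted p = 0.128) with normexp background correction, with which the other Nkx2-2 probe, at 0.40 (limma adjusted p = 0.139) otherwise, was called higher. The 10 markers of oligodendrocytes were all well above background on all 6 arrays, with 19 tested probes, 0 called in either direction and a median difference of -0.02.

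Nr5a1, the factor of the ventromedial nucleus, gave 6.95, 6.24 and 5.65 on the vehicle arrays and 6.21, 6.01 and 5.71 on the GSK-J4 arrays. The groups overlapped, with a difference of -0.30 (SE 0.34, limma adjusted p = 0.55). Without vehicle 1, the highest array, it was 0.03, and without vehicle 3, the lowest, it was -0.62. Tbx3, a T-box factor of arcuate neurons and tanycytes, gave 8.96, 8.99 and 8.92 for vehicle and 8.71, 8.79 and 9.20 for GSK-J4 on its brightest probe. Its groups overlapped as well, with a difference of -0.06 (SE 0.14, limma adjusted p = 0.8), and its second probe gave 0.34 (SE 0.18, limma adjusted p = 0.231). This second probe gave 0.11 with the trend on G and C content removed, and 0.18 to 0.47 without single arrays, lowest without vehicle 1. Vax1, a factor of the ventral forebrain and optic chiasm, was well above background on 2 of the 3 GSK-J4 arrays and on no vehicle array. It gave 2.10, 2.34 and 2.35 against 4.76, 4.81 and 4.18, so that all GSK-J4 values lay above all vehicle values. No fold is given, since the vehicle arrays and GSK-J4 3 were not above background. It was not tested, and it is named here after its values were seen. Nkx2-4 was called well above background on vehicle 1 only, at 3.89, while GSK-J4 1 and GSK-J4 3 had larger normalized values of 4.18 and 4.24 without being so called. Bsx, Hmx2, Hmx3 and Nkx2-1 were so called on no array.

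Of 7 factors of the paraventricular and neuroendocrine lineage, 4 were tested with 1 probe each, of which 0 were higher and 1 was lower. Pou3f1, a POU factor also known from Schwann cells and cortical neurons, gave 13.12, 13.16 and 12.97 on the vehicle arrays and 12.67, 12.73 and 12.70 on the GSK-J4 arrays (chr4:124337692-124337751 of mm9, plus strand). All 3 GSK-J4 arrays were below all 3 vehicle arrays, and the signal fell by 0.39 (SE 0.08, n = 3 per group, limma adjusted p = 0.0311). With scaling to the 75th percentile in place of quantile normalization, the difference was -0.17 (limma adjusted p = 0.167). Pou3f2, which acts downstream of Sim1 in magnocellular neurons, gave 9.42, 9.54 and 9.52 against 9.95, 9.56 and 10.09. The groups did not overlap, but the difference of 0.37 (SE 0.15, limma adjusted p = 0.13) did not pass. Pou3f3 gave -0.13 and Sim2 0.09, neither past the test. Otp, Sim1 and Pou3f4 were below background on all arrays.

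Of 8 LIM homeodomain genes, 5 were tested with 8 probes, of which 1 was called higher and 0 lower. Lhx8 is required for cholinergic neurons of the basal forebrain. Its probe at chr3:153974609-153974668 of mm9, minus strand, gave 6.10, 6.48 and 6.60 on the vehicle arrays and 6.95, 6.97 and 7.12 on the GSK-J4 arrays. The groups did not overlap, and the difference was 0.62 (SE 0.15, n = 3 per group, limma adjusted p = 0.0416). It was 0.34 (limma adjusted p = 0.158) with the trend on G and C content removed. The other probe of Lhx8 was below background on all arrays. Lhx6, which marks interneurons born in the medial ganglionic eminence, gave 14.02, 13.97 and 14.00 against 13.63, 13.96 and 13.86, with a difference of -0.18 (SE 0.10, limma adjusted p = 0.265). Every GSK-J4 value lay below every vehicle value, by little in GSK-J4 2, and with scaling to the 75th percentile the sign turned, to 0.12. Lhx2, a selector of cortex and tanycytes, did the same, with -0.11 and 0.15. The 3 probes of Lhx9, a factor of thalamus and hypothalamus, gave -0.15, -0.05 and -0.11, and those of Lmx1b, known from serotonergic neurons, gave 0.43 and -0.24, with none past the test. The Lmx1b probe with -0.24 entered only through vehicle and was well above background on 1 GSK-J4 array, so its difference is not read. Lhx5 was well above background on 3 of the 6 arrays, and Isl1 on none.

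Of 7 factors of mammillary, posterior and boundary regions, 2 were tested and none was called. Barhl1, a mammillary factor, gave 0.22 (limma adjusted p = 0.217), and Irx1 gave 0.55 (limma adjusted p = 0.129), both with groups that did not overlap. Barhl1 was -0.012 with the trend on G and C content removed. Irx1 was 0.27 with normexp background correction, and 0.32 to 0.72 without single arrays, lowest without GSK-J4 2. Irx3, whose gene lies near an obesity locus of the neighbouring Fto gene, was well above background on vehicle 1 and vehicle 2 only, at 4.55, 4.07 and 3.64 on the vehicle arrays and 3.35, 3.51 and 3.40 on the GSK-J4 arrays. It was not tested. Barhl2 was well above background on GSK-J4 1 only, and Foxb1, Irx2 and Irx5 on no array.

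All 4 Dlx genes, which drive GABAergic neurons of the forebrain, were well above background on all 6 arrays, and none was called. Dlx1 gave 8.13, 8.23 and 8.36 on the vehicle arrays and 8.41, 8.25 and 8.39 on the GSK-J4 arrays, with a difference of 0.11 (SE 0.09, limma adjusted p = 0.443). Dlx2 gave 0.27 (limma adjusted p = 0.12) and Dlx6 0.77 (limma adjusted p = 0.104), with groups that did not overlap for either. Dlx6 was past the methods' thresholds, but its difference was 0.28 with normexp background correction and 0.47 without GSK-J4 2, both below the fold threshold. Dlx5 gave 5.65, 6.74 and 6.92 against 6.87, 7.12 and 5.39, a difference of 0.02 (SE 0.56), with vehicle 1 and GSK-J4 3 as the low arrays. The spot on GSK-J4 3 lies in a patch of low spots, described below, where 3 of 21 bright spots were low (14.3%). With spots in patches left out the difference was 0.56 (5 arrays, limma adjusted p = 0.373). Neighbouring genes were alike in detection in some pairs and split in others. The probes of Dlx1 and Dlx2 lie 10.1 kb apart on chromosome 2 and those of Dlx6 and Dlx5 13.0 kb apart on chromosome 6, all well above background on all 6 arrays, whereas those of Hmx3 and Hmx2, 11.7 kb apart on chromosome 7, were below it throughout. Nkx2-2 was well above background and Nkx2-4, 98.9 kb away, was not on 5 of the 6 arrays. Irx1 and Irx2, 675 kb apart, were split in the same way.

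Of 6 TALE, Onecut and Ebf genes, 5 were tested with 14 probes, of which 1 was called higher and 0 lower. The TALE proteins Meis and Pbx bind DNA together with Hox and other homeodomain factors. Meis2 was measured by 5 tested probes that went in both directions. The probe at chr2:115891999-115892058 of mm9, minus strand, gave 6.59, 6.69 and 6.77 on the vehicle arrays and 7.73, 7.22 and 7.68 on the GSK-J4 arrays. The groups did not overlap, and the difference was 0.86 (SE 0.15, n = 3 per group, limma adjusted p = 0.0247). It was 0.64 (limma adjusted p = 0.0454) with the trend on G and C content removed. The brightest probe, at chr2:115689641-115689700, gave 10.91, 10.92 and 11.00 against 11.85, 11.02 and 11.59. Its groups did not overlap either, by little in GSK-J4 2, and its difference was 0.54 (SE 0.21, limma adjusted p = 0.129). A probe between these positions, at chr2:115821828-115821887, gave 7.89, 8.07 and 8.39 against 7.90, 7.43 and 8.10, with a difference of -0.30 (SE 0.21, limma adjusted p = 0.349) and groups that overlapped. The difference of this probe was -0.16 with the trend on G and C content removed, and -0.45 to -0.11 without single arrays. The highest and the lowest of the 5 differed by 1.17. The files assign these 3 probes to 3 different transcript records, and which transcripts each probe binds was not tested.

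Pbx3, the third TALE gene here, had 3 tested probes. The probe at chr2:34223640-34223699 of mm9, minus strand, gave 4.61, 4.33 and 4.72 on the vehicle arrays and 3.77, 3.20 and 4.04 on the GSK-J4 arrays, where it was well above background on none. It entered the test only through vehicle, the group where it is high, so that the filter itself favoured a lower value in GSK-J4 and its p is not read. With each GSK-J4 array given the lowest value at which it called any probe well above background, or the own value of the probe if larger, it was at least 1.03-fold lower there. This bound is not read as a fall either, since the same filter chose the probe. The probe at chr2:34027481-34027540 gave 8.82, 9.02 and 9.26 against 9.47, 9.12 and 9.28, with groups that overlapped and a difference of 0.26 (SE 0.15, limma adjusted p = 0.264). The probe at chr2:34026999-34027058 gave 8.79, 8.74 and 9.01 against 9.56, 8.98 and 6.41, so that 1 array, GSK-J4 3, set its difference of -0.53 (SE 0.81, limma adjusted p = 0.666). Without that array it was 0.43.

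**Figure D4:**
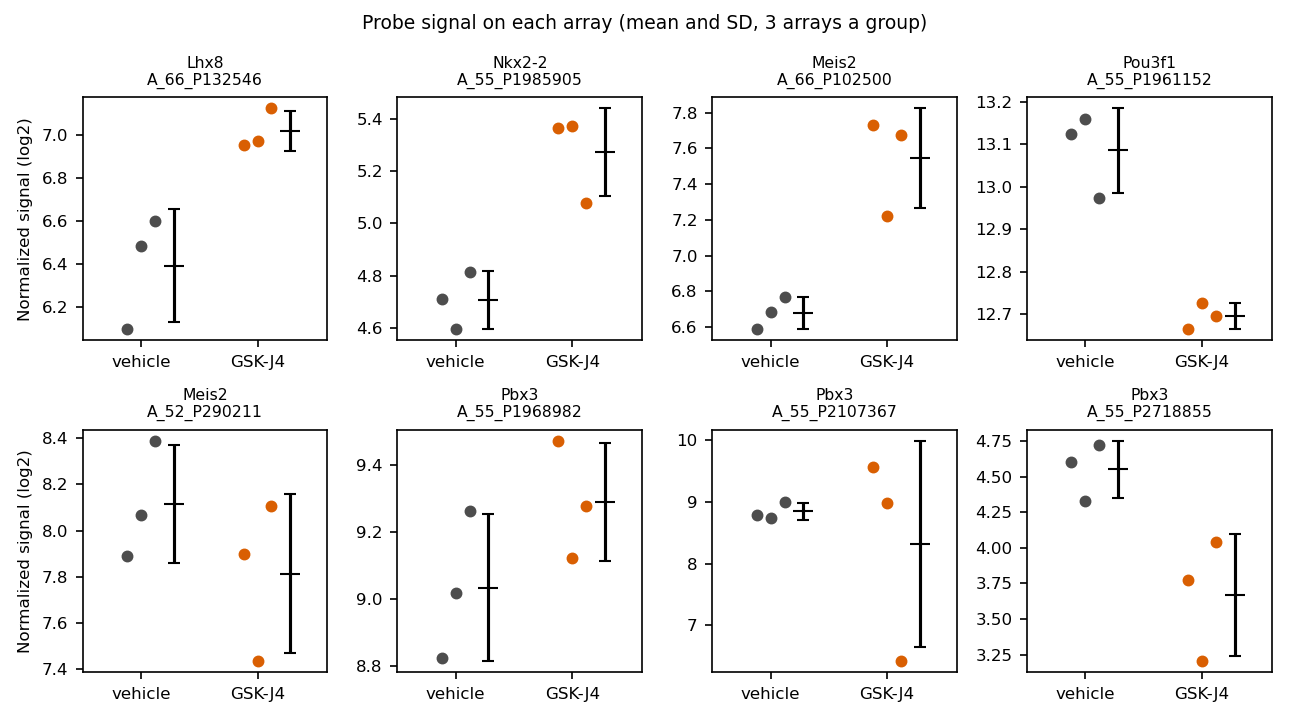
Normalized signal (log2) of 8 probes on each of the 3 vehicle arrays (grey) and 3 GSK-J4 arrays (orange), replicates 1 to 3 from left to right, with the mean and SD of each group in black, on an axis of its own for each probe. The groups are apart for the 4 called probes in the upper row, and in the lower row GSK-J4 3 lies at 6.41 for Pbx3 A_55_P2107367 while the other arrays lie between 8.74 and 9.56.

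The low value of Pbx3 lay in a patch of low spots on the array. Arrays were divided into tiles of 16 rows and 16 columns of spots, and spots of probes with a mean above 8 over the 6 arrays were taken as bright. A tile was called a patch where it held 20 or more bright spots and over 10% of them were more than 1 below the median of the other arrays. GSK-J4 3 had 15 patches, and the other arrays had between 0 and 5. The spot of the Pbx3 probe, in row 228 and column 121, lies in a tile where 45% of 80 bright spots were low, against 1.3% outside the patches of that array. Spots of Dlx5, Ebf1, Lmx1a and Pou3f4 lie in other patches of the same array. On GSK-J4 1 the spot of the dim Lhx8 probe lies in a patch, and on GSK-J4 2 that of Pbx3 A_55_P1968982. The difference of this Pbx3 probe was 0.32 with spots in patches left out. With spots in patches left out, an alternative chosen after the values were seen, Pbx3 A_55_P2107367 gave 0.43 (5 arrays, limma adjusted p = 0.194), 3 probes were called higher and 2 lower, and the lower ones were Pou3f1 and Pbx3 A_55_P2718855, the probe that had entered only through vehicle.

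**Figure D5:**
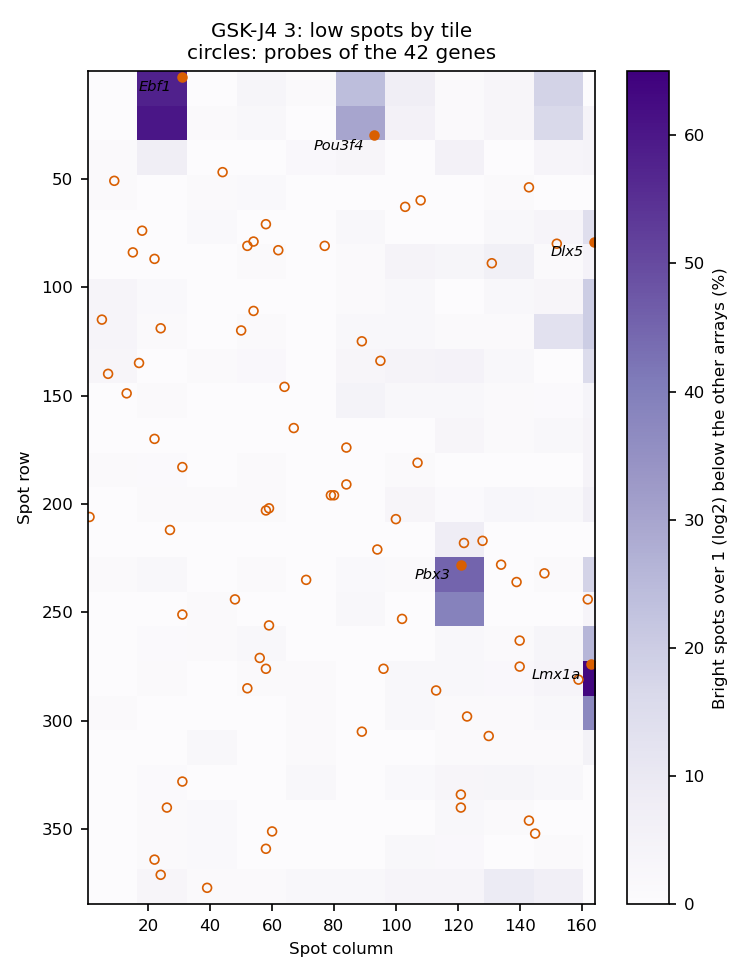
Share of bright spots on GSK-J4 3 that lie more than 1 (log2) below the median of the other arrays (%), by tile of 16 spot rows and 16 spot columns, with the probes of the 42 genes as circles, filled and named where they lie in a patch. The tile of Pbx3 holds 45% low spots and that of Lmx1a 63.6%.

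Onecut2, a cut homeodomain factor of neurons, gave 10.34, 10.32 and 10.34 on the vehicle arrays and 10.12, 10.44 and 10.27 on the GSK-J4 arrays. The groups overlapped, with a difference of -0.06 (SE 0.10, limma adjusted p = 0.713). The brightest probe of Meis1 gave 0.34 (limma adjusted p = 0.219), and a dim one, well above background on no GSK-J4 array, had groups that overlapped, and since it entered the test only through vehicle its p is not read. The 3 probes of Ebf1, a helix-loop-helix factor of striatal neurons and B cells, lay between -0.33 and 0.05, where the lowest entered only through vehicle, with 2 of 3 GSK-J4 arrays well above background, and is not read. Onecut3 was below background on all arrays.

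The other developmental factors of the brain, a list of 48 genes on the array, were read in the same way. Of these, 34 genes were tested with 51 probes, of which 5 were called higher and 4 lower, with a median difference of 0.12 over the 48 probes well above background on all 6 arrays. These are 9.8% and 7.84%, near the 8.38% and 8.4% of all tested probes, and no result about the list. Higher were, among others, 1 of 2 tested probes of Tbr1 (0.97, limma adjusted p = 0.0457), Sox3 (0.72, limma adjusted p = 0.0224), and Irx6 (0.56, limma adjusted p = 0.0426). Rax, a factor of retina and tanycytes, is counted among them, but its probe entered only through GSK-J4, where it is high, and its p is not read. Lower were, among others, Arnt2, the partner of Sim1 (-0.43, limma adjusted p = 0.0362), and Tshz1 (-0.43, limma adjusted p = 0.025). Without vehicle 1, 0 of the 51 were called in either direction.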

How the data were processed

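RNA of 6 hypothalamus samples, 3 vehicle and 3 GSK-J4, was measured on Agilent arrays. The authors extracted a background-corrected intensity per spot with Feature Extraction 10.7.1.1 and deposited it with its flags. The deposited log2 values were quantile normalized in GeneSpring per the methods, with a median of 5.74 in each of its 6 columns. On the 77 probes it correlates with the values used here at 1.00 on each array, so it is no independent source. Its columns were assigned by sample name.

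Control and outlier spots were left out, and log2 intensities were averaged per probe and quantile normalized. No spot of the listed genes was saturated. Probes well above background on all 3 arrays of a group were fitted with lmFit and eBayes in limma 3.58.1 (R 4.3.3, with data.table in version 1.17.8), two-sided, with no covariate, and adjusted by Benjamini-Hochberg over all 34443. The fit was tested on simulated data. The members and lists were chosen with earlier results of these data known.

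Values on every array are given for probes past an adjusted p of 0.05, for the brightest detected probe of 16 genes named by rule, and for the extremes of genes whose probes differ by 1 or more. Genes of other lists are named when past that p, at most 4 per list and direction, but marker lists are given by counts only and not every such gene is named. Coordinates are those of the files (mm9), with no exon annotation used. Bounds follow the rule stated for Pbx3. Alternatives were 75th percentile scaling, normexp with an offset of 50, the deposited table, other filters, 1 probe per gene, a lowess correction for G and C content with a span of 0.3, an intensity trend, the methods' t-test, a replicate block, each array left out and, chosen after the data were seen, spots in patches left out. Promoter sequences were not used here.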

Additional observations from a re-analysis of the deposited data

How the results depend on the processing

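Each group has 3 arrays on 1 slide, so that slide, scan and treatment cannot be told apart. No pairing by replicate number was evident. The residuals of same-numbered arrays correlate at 0.0074, 0.0258 and 0.0817 over 34443 probes, and those of differently numbered arrays at -0.098 to 0.093. With 3 arrays in each group, residuals about the group mean cannot settle whether arrays were paired, and the block is given as an alternative only. Called probes of the 42 genes, 3 higher and 1 lower, became 2 higher with 75th percentile scaling, with no filter, with the trend on G and C content removed and with the intensity trend, 1 higher with 1 probe per gene, 0 lower with the G and C trend removed, 2 lower with spots in patches left out, and 0 and 0 with the methods' t-test after adjustment and with the replicate block. Without single arrays they were 0 to 4 higher and 0 to 1 lower. With 75th percentile scaling the lower probe was Pbx3 A_55_P2718855, which had entered only through vehicle, in place of Pou3f1. At the methods' thresholds, 3 and 1 became 1 and 0 with normexp, 6 and 2 with no filter, 0 lower with all 6 arrays above background, with 1 probe per gene and with the t-test, and 1 to 4 higher and 1 lower without single arrays. The median of 0.09 became 0.21 with patches left out and 0.052 to 0.27 without single arrays. Other developmental factors, 5 higher and 4 lower, became 8 higher with 75th percentile scaling, 2 higher with no filter and with the trend removed, 2 lower with 1 probe per gene, 0 and 0 with the t-test and the block, and 0 to 5 higher and 0 to 3 lower without single arrays.

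The called probes kept their sign throughout, Lhx8 at 0.34 to 0.73 and called in 6 of 17 alternatives, Nkx2-2 at 0.18 to 0.71 in 6 of 16, Meis2 at 0.59 to 1.02 in 10 of 16 and Pou3f1 at -0.45 to -0.17 in 7 of 17. Signs turned only for probes that were not called. With 75th percentile scaling they turned for Dlx5 (-0.12), Lhx2 (0.15), Lhx6 (0.12), Ebf1 A_55_P2805845 (-0.068), Onecut2 (0.011) and Sim2 (-0.042), with the trend removed for Barhl1 (-0.012) and Sim2 (-0.12), and with patches left out for Pbx3 A_55_P2107367 (0.43). Without single arrays the ranges crossed 0 for Dlx5 (-0.37 to 0.56), Lhx9 (-0.39 to 0.037 and -0.27 to 0.074), Lmx1b A_55_P2146295 (-0.60 to 0.17), Ebf1 (-0.079 to 0.026, -0.078 to 0.12 and -0.60 to 0.045), Onecut2 (-0.14 to 0.024), Pbx3 A_55_P2107367 (-1.15 to 0.43), Sim2 (-0.17 to 0.32), Nr5a1 (-0.62 to 0.030) and Tbx3 A_55_P1969002 (-0.20 to 0.039). Over all tested probes, 2888 higher became 5036 with 75th percentile scaling, 1805 with no filter, 1468 with the trend removed, 34 with the t-test and 0 with the block. The cause of these changes was not tested. The lowest signal well above background was 3.79 to 3.90 on the vehicle and 4.39 to 4.64 on the GSK-J4 arrays, so dim probes were called well above background more readily on vehicle arrays.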

Other observations

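Noncoding neighbours of these genes were measured as well. Of 13 listed, 5 were tested with 11 probes, of which 2 were called higher and 1 lower, beside 8.38% and 8.4% of all tested probes, and with so few probes the counts are no result about the list. Dlx1as, the antisense transcript of Dlx1, gave 4.90, 4.95 and 4.99 on the vehicle arrays and 6.12, 5.86 and 5.92 on the GSK-J4 arrays, a difference of 1.02 (SE 0.09, limma adjusted p = 0.0125), on a probe with 55% G and C, while Dlx1 itself gave 0.11. A probe of Dlx6os1, transcribed opposite Dlx6, fell by 0.37 (limma adjusted p = 0.027), and its other probes gave -0.26 and -0.25. Sox2ot, which overlaps Sox2, gave 0.45 (limma adjusted p = 0.0407) on 1 probe and -0.31 and -0.41 on others.

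Genes of the H3k27 demethylase family and of the Polycomb complex that writes H3k27me3 were split among their probes too. Over 7 genes and 18 tested probes, 1 was called higher and 3 lower (5.56% and 16.7%, beside 8.38% and 8.4% of all tested probes). Among the lower ones, those of Kdm6a and Suz12 entered the test only through vehicle, the group where they are high, so that the filter itself favoured a lower value and their p is not read. Over the 16 probes well above background on all 6 arrays, 1 was called higher and 1 lower. Ezh2, a methyltransferase of the Polycomb complex, was called on 1 of 5 probes, with 0.55 (limma adjusted p = 0.0258). Kdm6a was at least 1.39-fold lower on 1 of 3 tested probes, with no GSK-J4 array well above background, and another gave 0.05. Suz12 was at least 1.24-fold lower on 1 of 3 tested probes. Neither bound is read as a fall, since the filter took in both probes only through vehicle. Uty fell by 1.41 (limma adjusted p = 0.0299) on 1 probe and gave 0.01 on another. Kdm6b gave 0.25 (limma adjusted p = 0.149).

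Of the peptides, 3 of 17 tested probes were called higher and 0 lower, namely Pomc with 0.86 (limma adjusted p = 0.0221), Ghrh with 0.59 and Npy with 0.42. The background of 8.38% higher and 8.4% lower holds for these counts too, and over all tested probes only 2 higher and 8 lower calls were left without vehicle 1. Among the marker lists, neurons had 2 of 25 probes higher and 7 lower, and astrocytes and tanycytes 3 of 19 and 1. The 3 include the probe of Rax, which entered only through GSK-J4, where it is high, so its p is not read. Microglia had 2 of 10 and 0, cortex and striatum 1 of 14 and 1, and thalamus and habenula 1 of 21 and 1. No tested probe was called for choroid plexus and ependyma, meninges and fibroblasts, oligodendrocytes, endothelium and blood, midbrain and hindbrain or pituitary in the limma test, where 0, 1, 0, 0, 0 and 0 were higher and 0, 0, 1, 0, 0 and 0 lower at the methods' thresholds.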
